A study of Mus musculus with 21 samples.

Results

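The list described here holds the 18274 regions that the authors' peak caller found in a single chromatin immunoprecipitation (ChIP-seq) library from the basal ganglia primordium, the ganglionic eminences, of CD1 mouse embryos at E13.5. The peaks are all those of the deposited list that carries the name HDAC1, out of 91480 peaks in the 6 ChIP lists of the series. The name of the list and the title of its sample are in conflict. The list is attached to the sample titled CHD4, with the antibody label Abcam ab72418, which the labels pair with input 2. The list named HDAC2 is attached to the sample titled HDAC1 and the list named CHD4 to the sample titled HDAC2. Both of these samples are paired with input 1. The lists of MBD3 (input 2), RBBP4 and RBBP7 (both input 3) match their titles. In the file names, the HDAC1-named list shares its prefix with the HDAC2-named list, and the CHD4-named list shares another with MBD3. Which protein was precipitated, and which input stands behind a list whose name and title conflict, cannot be told from these labels. The lists are therefore called HDAC1-named, HDAC2-named and CHD4-named throughout.

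All ChIP samples came from the same strain, tissue and stage, with chromatin fixed with DSG and then PFA, and each has 1 library. The tissue was not separated into cell types, so a peak cannot be given to progenitors, neurons or other cells. Accessibility was measured at E12.5 in Dlx1/2 knockout (KO) and wild-type (WT) embryos of the same strain, 3 embryos per genotype and cell fraction. FTneg cells are those of the subventricular and mantle zones and FTpos cells those of the ventricular zone. No ChIP library has a replicate and the depth behind the peaks is unknown, so no test was made. Each share is given with a Wilson 95% interval where it matters, which covers counting error over peaks, genes or promoters only.

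NuRD joins a chromatin remodelling ATPase (CHD4 or a relative) and the histone deacetylases HDAC1 and HDAC2 in a single complex, with MBD2 or MBD3, the MTA and GATAD2 proteins and the histone-binding RBBP4 and RBBP7. HDAC1 and HDAC2 also serve the Sin3 and CoREST corepressor complexes, and RBBP4 and RBBP7 the Sin3 complex and Polycomb repressive complex 2. Histone deacetylases are usually described as corepressors, but they are also found at active promoters, where acetyl groups turn over. The ganglionic eminences make the GABAergic neurons of the striatum and the interneurons of the cortex, under transcription factors of the Dlx, Gsx, Nkx2 and Lhx families.

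The sequences that follow are promoters with peaks of high fold enrichment or of the lineage, and a liver gene without a peak. Each is the 250 bases before the most upstream start of the gene in RefSeq, build GRCm38.p6, written 5′ to 3′ along the gene. Capitals mark matches to any of 12 short motifs on either strand. Psme3 encodes an activator of the proteasome (chr11:101315963-101316212, plus strand), Mcm5 a subunit of the replicative helicase (chr8:75109259-75109508, plus) and Cdk1 the mitotic kinase (chr10:69352913-69353162, minus). Rbbp4 encodes the NuRD subunit (chr4:129335371-129335620, minus), Dlx2 a homeodomain factor of the GABAergic lineage (chr2:71546755-71547004, minus) and Thg1l a tRNA guanylyltransferase (chr11:45955504-45955753, minus). Alb encodes serum albumin (chr5:90460620-90460869, plus).
Psme3: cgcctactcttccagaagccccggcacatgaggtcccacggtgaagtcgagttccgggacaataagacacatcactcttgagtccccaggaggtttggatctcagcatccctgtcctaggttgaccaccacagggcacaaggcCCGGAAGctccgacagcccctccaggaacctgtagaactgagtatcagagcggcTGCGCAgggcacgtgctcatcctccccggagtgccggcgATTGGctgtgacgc
Mcm5: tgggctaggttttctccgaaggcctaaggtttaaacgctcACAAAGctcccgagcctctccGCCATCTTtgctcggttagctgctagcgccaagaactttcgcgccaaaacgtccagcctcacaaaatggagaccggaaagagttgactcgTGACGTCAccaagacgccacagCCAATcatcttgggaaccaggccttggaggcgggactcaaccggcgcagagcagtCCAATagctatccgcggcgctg
Cdk1: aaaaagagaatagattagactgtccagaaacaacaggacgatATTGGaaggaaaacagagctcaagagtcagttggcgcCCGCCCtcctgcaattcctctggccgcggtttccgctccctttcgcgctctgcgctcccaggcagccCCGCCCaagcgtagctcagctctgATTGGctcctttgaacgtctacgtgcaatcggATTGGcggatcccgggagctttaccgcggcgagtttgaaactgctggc
Rbbp4: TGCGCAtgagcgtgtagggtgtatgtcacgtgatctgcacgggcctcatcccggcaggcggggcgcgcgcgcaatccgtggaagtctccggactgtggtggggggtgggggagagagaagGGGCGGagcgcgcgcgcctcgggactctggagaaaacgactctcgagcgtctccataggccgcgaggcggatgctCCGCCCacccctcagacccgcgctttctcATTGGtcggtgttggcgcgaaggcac
Dlx2: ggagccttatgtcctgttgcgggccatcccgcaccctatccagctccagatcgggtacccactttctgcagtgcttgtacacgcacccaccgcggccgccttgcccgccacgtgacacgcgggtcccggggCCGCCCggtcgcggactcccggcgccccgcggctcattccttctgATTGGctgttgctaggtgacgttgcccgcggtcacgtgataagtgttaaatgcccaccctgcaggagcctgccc
Thg1l: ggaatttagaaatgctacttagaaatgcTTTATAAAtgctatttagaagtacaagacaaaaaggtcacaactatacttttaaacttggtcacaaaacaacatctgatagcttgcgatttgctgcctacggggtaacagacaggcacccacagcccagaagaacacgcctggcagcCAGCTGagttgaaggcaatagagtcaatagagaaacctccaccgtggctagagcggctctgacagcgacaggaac
Alb: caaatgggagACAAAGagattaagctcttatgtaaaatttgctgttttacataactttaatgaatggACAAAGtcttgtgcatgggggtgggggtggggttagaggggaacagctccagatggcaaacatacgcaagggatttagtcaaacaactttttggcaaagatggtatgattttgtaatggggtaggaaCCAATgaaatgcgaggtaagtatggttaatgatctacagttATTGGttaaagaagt

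The peaks over these promoters had fold enrichments of 26.3 at Psme3, 17.5 at Mcm5, 17.2 at Cdk1, 12.3 at Rbbp4, 14.5 at Dlx2 and 27.7 at Thg1l. Fold enrichment is the authors' ratio of ChIP signal to background at the summit, the highest point of a peak. Their summits lay 224 bp downstream of the start at Mcm5, 111 bp at Cdk1, 579 bp at Rbbp4, 124 bp at Dlx2 and 189 bp at Thg1l, and 107 bp upstream at Psme3. All of them overlapped a peak of the HDAC2-named list and of RBBP4. The ratio of observed to expected CpG in the 300 bases from 250 before to 50 after the start, which is near 1 in CpG islands and low in most of the genome, was 1.12 for Rbbp4, 1.0 for Mcm5, 0.965 for Cdk1, 0.898 for Dlx2, 0.728 for Psme3 and 0.536 for Thg1l, and 0.272 for Alb.

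Mature miRNAs are shown because all 3 loci of miR-9, a miRNA abundant in neural progenitors, lay inside wide peaks. Sequences are from RefSeq and capitals mark the seed, bases 2 to 8. The 3 loci give the same 5′ and 3′ products. Their antisense products, annotated at Mir9-1 and Mir9-2, have other seeds.
miR-9-5p: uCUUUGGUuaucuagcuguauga
miR-9-3p: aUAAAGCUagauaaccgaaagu
miR-9b-3p: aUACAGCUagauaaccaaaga
miR-92b-3p: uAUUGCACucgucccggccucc
miR-125b-5p: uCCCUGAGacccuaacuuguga
let-7i-5p: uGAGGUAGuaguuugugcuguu

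The Mir9-2 hairpin (chr13:83738814-83738885) lay in a peak of 28333 bp and fold 14.4, Mir9-3 (chr7:79505264-79505353) in a peak of 11800 bp and fold 12.004, and Mir9-1 (chr3:88215598-88215686) in a peak of 3485 bp and fold 8.57. None of the other 5 lists had a peak over any of these 3 hairpins themselves. Elsewhere along the wide peaks other lists did have peaks. The Mir9-2 peak overlapped peaks of the HDAC2-named list, MBD3 and RBBP4, and the Mir9-3 peak those of the same lists and RBBP7. In all, 66 of 1005 annotated hairpins (6.57%) overlapped an HDAC1-named peak, some of them only in part, and 15 of them a peak of at least 2500 bp. Hairpins annotated on both strands of a locus, as at Mir9-1 and Mir9-2, are counted singly. Mir92b, of the miR-92 family of progenitors, lay in a peak of fold 19.05 (2873 bp), Mir125b-1 in 1 of fold 12.8 (4459 bp), Mirlet7i in 1 of fold 12.6 (2375 bp), the oligodendrocyte miRNA gene Mir219a-1 in 1 of fold 9.53 and Mir137 in 1 of fold 6.37.

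The HDAC1-named peaks were mostly peaks of gene starts. A peak was placed at a start if its summit lay within 1 kb of a start of a protein-coding gene for which RefSeq holds a curated mRNA. For the 4170 of 20953 genes without a RefSeq promoter entry, either annotated end stood in for the start. By this rule 10815 peaks (59.2%, 58.5 to 59.9) lay at starts. A further 4220 (23.1%) lay inside genes, 306 at the other end of a gene, 701 within 10 kb of a gene, 1057 at 10 to 100 kb and 1175 (6.43%) at over 100 kb. The share at starts was close to that of the HDAC2-named list (59.1%) and above those of MBD3 (46.0%), the CHD4-named list (39.4%), RBBP4 (36.4%) and RBBP7 (18.4%). In genes of at least 5 kb whose strand is known, 48.2% of 13111 had an HDAC1-named peak at the start and 1.82% at the far end.

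Within the start region the summits lay on the transcribed side. Of 9044 summits within 1 kb of a start of known strand, 6745 (74.6%, 73.7 to 75.5) were at it or downstream, with a median of 184 bp downstream. The quartiles were 8 bp upstream and 306 bp downstream, and 55.4% of these summits fell from 0 to 400 bp. The other lists were placed differently around the same starts. The share downstream was 65.0% in the HDAC2-named list (median 122 bp), 59.7% in MBD3 (72 bp), 55.4% in RBBP4 (24 bp), 49.8% in RBBP7 (2 bp upstream) and 47.7% in the CHD4-named list (20 bp upstream). The Wilson interval of the next list, HDAC2-named, was 63.7 to 66.2. These intervals cover counting error over peaks, and with 1 library per list the spread between libraries is not measured.

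**Figure D1:**
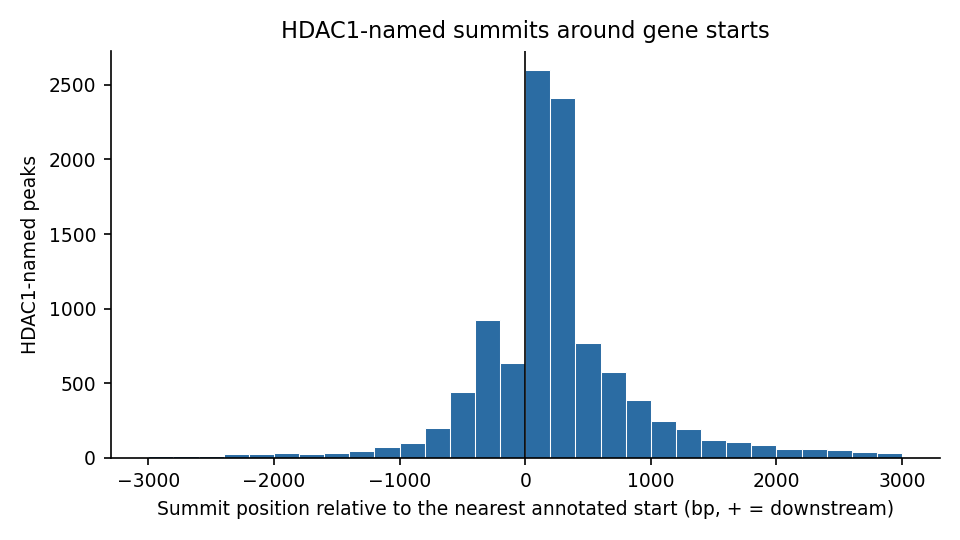
Number of HDAC1-named peaks (y axis) by the position of the summit relative to the nearest annotated start of known strand, in bins of 200 bp (x axis, positive values downstream in the direction of transcription). The highest bins are those from 0 to 400 bp downstream of the start, which hold 55.4% of the summits within 1 kb.

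Over all genes, 9609 of 20953 (45.9%) had an HDAC1-named peak at the start, and 2286 of them had at least 2. The corresponding shares were 28.8% in the HDAC2-named list, 10.3% in the CHD4-named list, 24.4% in MBD3, 48.1% in RBBP4 and 12.7% in RBBP7. Of the genes with an HDAC1-named start peak, 7696 also had an RBBP4 start peak, 5505 an HDAC2-named, 4166 an MBD3, 2102 an RBBP7 and 1810 a CHD4-named start peak. A start peak of all 6 lists was found at 612 genes, and one of the HDAC1-named list alone at 1174. No HDAC1-named peak lay in or within 1 kb of 10251 genes (48.9%). Genes whose start lay within 1 kb of an oppositely transcribed start had a peak in 86.9% of 1457 cases (85.1 to 88.5, median fold 8.22), and other genes of known start in 43.1% of 15326 (42.4 to 43.9, median fold 6.67). By the 1 kb rule a single summit can count for both genes of such a pair. Paired genes are therefore not independent, and the shares were not adjusted for this. Where a gene had known starts at least 5 kb apart, the peak was at the upstream start alone in 338 of 1005 genes, at the downstream start alone in 124, at both in 136 and at neither in 407. Genes of the X chromosome had a start peak in 23.5% of cases, the lowest share of any chromosome analysed, and those of chromosome 12 in 56.8%, the highest.

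Of the 20 peaks of highest fold, 15 lay at gene starts, and the 2 highest did not. Those 15 included Thg1l (27.7), the shared start of the nucleolar gene Nol8 and the centromere gene Cenpp (27.04), the spliceosome gene Crnkl1 facing Cfap61 (26.3), Psme3 (26.3), Mat2a, which encodes an enzyme that makes S-adenosylmethionine (25.8), and Fosb, an AP-1 factor gene (25.7). Genes of mitosis and the checkpoint were Wee1, the kinase that restrains CDK1 (23.3), the spindle checkpoint kinase gene Bub1 (23.2) and the spindle motor gene Kif11 (22.3). Rpl4, a ribosomal protein gene that faces the kinetochore gene Zwilch, had 22.9 and the octamer factor gene Pou2f1 22.9. The remaining 5 included the highest peak of the list, 33.7, at chr5:142367312-142368214, 33877 bp from the forkhead gene Foxk1, and a peak of 31.4 within Cacng4, an AMPA receptor auxiliary subunit gene. All 20 overlapped a peak of the HDAC2-named list. Of these 20, 4 overlapped all 5 other lists, at Cacng4, Pou2f1, Acvr1b and 76883 bp from Ifngr1, and the fold there ran to 50.7 in RBBP7 at Cacng4. The fold enrichment of a peak takes only 1618 different values over the 18274 peaks, so ranks within the list hold many ties.

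Gene starts and other places differed in strength and width. Peaks at starts had a median fold of 6.26 and a median width of 755 bp, and peaks away from starts 5.13 and 495 bp. With the list divided into 4 equal bins by fold, the share at starts was 45.8%, 49.7%, 63.9% and 77.3% from the lowest bin to the highest. Across peaks, fold and width had a Spearman rho of 0.64, a description over 18274 peaks of a single library.

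Chromatin regulator and cell cycle genes were mostly covered at the start. The gene lists were chosen with earlier results of these data known, and the 45.9% of all genes is the level against which each count is read. Among chromatin regulators, 13 of 13 Sin3 complex genes had a start peak (Sap30 16.6, Sin3a 12.1), 13 of 14 Polycomb genes (Suz12 14.5, Cbx2 14.1), 13 of 15 NuRD subunit genes (Rbbp4 12.3, Gatad2a 11.8, Chd4 10.9, Mbd3 9.50), 9 of 10 histone acetyltransferase genes (Kat6a 17.8) and 6 of 7 CoREST genes (Rcor1 10.8). The 2 NuRD genes without one were Chd5, a neuronal relative of Chd4, and Mbd2, the methyl-CpG binding alternative to Mbd3. Both had a peak elsewhere in the gene or within 1 kb. RBBP4 had a start peak at 11 of these Sin3, 13 Polycomb, 14 NuRD, 8 histone acetyltransferase and 6 CoREST genes. In the same order the HDAC2-named list had 8, 11, 9, 5 and 5, and MBD3 6, 10, 11, 5 and 4. The CHD4-named list had 1, 9, 5, 2 and 2, and RBBP7 3, 5, 5, 3 and 4. Of the 20 cell cycle genes 16 had a start peak, with a median fold of 13.9 against 6.78 over all genes with one. RBBP4 had a start peak at 17 of the 20, the HDAC2-named list at 16, MBD3 and RBBP7 at 5 each and the CHD4-named list at 3. Over all genes these lists had 48.1%, 28.8%, 24.4%, 12.7% and 10.3% in that order. The replication helicase genes Mcm3 (18.97), Mcm5 (17.5) and Mcm2 (15.8) led the HDAC1-named list with Cdk1 (17.2). Ccnd2, Ccna2 and the inhibitor genes Cdkn1a and Cdkn1c had no HDAC1-named start peak. Of these, Ccna2 (9.52), Ccnd2 (7.49) and Cdkn1a (5.14) had a peak elsewhere in the gene or within 1 kb, and Cdkn1c did not.

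Genes of protein synthesis, protein breakdown and respiration had more start peaks in the HDAC1-named list than in any of the other 5 lists. Of 84 cytosolic ribosomal protein genes 75 (89.3%) had an HDAC1-named start peak, with a median fold of 7.62. Against this, 36 had a start peak in RBBP4, 26 in the HDAC2-named list, 11 in MBD3, 7 in RBBP7 and 6 in the CHD4-named list. RBBP4 covered more genes in all (48.1%) than the HDAC1-named list (45.9%). The remaining lists covered fewer, with 28.8% for the HDAC2-named list, 24.4% for MBD3, 12.7% for RBBP7 and 10.3% for the CHD4-named list. Lower counts in those lists are therefore to be read against their lower shares over all genes. Of 48 proteasome genes 40 had an HDAC1-named start peak (Psme3 26.3, Psmd13 15.0), against 24 in RBBP4, 20 in the HDAC2-named list, 7 in MBD3, 3 in the CHD4-named list and 1 in RBBP7. Of 37 genes of respiratory complex I, 32 had an HDAC1-named start peak (Ndufs3 13.0, Ndufv1 12.46), against 24 in RBBP4, 16 in the HDAC2-named list, 12 in MBD3, 10 in RBBP7 and 8 in the CHD4-named list. These comparisons rest on 1 library per list.

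The reverse was found at Hox genes, the homeodomain genes of the trunk and hindbrain axis, which are silent in the forebrain. None of 39 had an HDAC1-named start peak, and none had such a peak in or within 1 kb of the gene. RBBP4 had a start peak at 32 of the 39, RBBP7 at 14, MBD3 at 1 and the HDAC2-named and CHD4-named lists at 0. Of 14 genes of posterior and dorsal patterning (among them En1, Gbx2 and Pax3, with 5 Hox genes), 0 had an HDAC1-named start peak. The count was also 0 in the HDAC2-named list, the CHD4-named list and MBD3, while 9 had an RBBP4 and 8 an RBBP7 start peak. Large families of sensory receptor and epithelial genes were also without start peaks, with 0 of 1104 olfactory receptor genes, 0 of 353 vomeronasal receptor genes and 0 of 49 keratin genes. The other lists had 0 in these families as well, except for RBBP4 at 2 olfactory receptor genes and 1 keratin gene. Of 57 clustered protocadherin genes, which give neurons their surface identities, 22 had a peak at either end (Pcdhgc4 9.10), and the count was also 22 in the HDAC2-named list, MBD3 and RBBP4. Genes of a protocadherin cluster share an end, so these counts are not of separate starts.

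Of 15 marker genes of the tissue, 10 had a start peak, with a median fold of 5.41, and 14 had a peak in the gene or within 1 kb. Over all genes 48.9% had no peak in that span. The span grows with gene length, and this was not adjusted for. At a −log10 q of 10 or more the start count was 5 of 15, below the 37.1% of all genes at that threshold. Dlx2 had the highest start peak of the markers (14.5), and the interneuron gene Lhx6 (6.29) and the striatal factor gene Isl1 (5.72) were also among the higher ones. For Dlx5 and Dlx6 either end of the gene stood in for the start. At Gsx2 and Six3 the summits of the strongest peaks lay over 1 kb from the start, in peaks of 2860 and 5154 bp and folds 7.15 and 10.9. The GABA genes were weak, with 5.08 at Gad1, 4.77 at Gad2 and 3.82 at Slc32a1, all below the median of 6.78. Of the 19 MGE and interneuron factor genes 13 had a start peak (Zeb2 14.5) and of the 21 LGE and striatal genes 10 (Bcl11a 12.6), a share close to that of all genes. The dopamine receptor genes Drd1 and Drd2 of mature striatal neurons had none. Of 22 ventricular zone progenitor genes 15 had a start peak, led by the Notch target Hes1 (11.7) and Notch1 (10.9), and of 17 Notch pathway genes 13 (Maml1 13.6). Of 12 Hedgehog genes 9 had one (the coreceptor gene Gas1 9.10), of 20 neuronal differentiation genes 12 (Map2 9.31) and of 13 housekeeping genes 9 (the translation factor gene Eef1a1 11.5). Of the 6 TLE corepressor genes 3 had one (Tle4 11.8), and of the 6 Dlx genes 3, at Dlx2, Dlx5 (5.44) and Dlx6 (5.38). At 4 of 10 Sox genes the peak was at the start (Sox6 6.78), while all 10 had a peak in the gene or within 1 kb. That count too is read against the 48.9% of all genes without such a peak.

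Most markers of microglia, vessels, blood, liver, muscle and macroglia were without start peaks. A start peak was found at 0 of 10 microglial genes, 1 of 14 endothelial and mural genes (Kdr 5.20), 1 of 9 erythroid genes, 1 of 16 liver and muscle genes (Apoa2 7.15) and 3 of 13 oligodendrocyte and astrocyte genes (Olig2 9.91, Olig1 7.55 and Mbp 4.77). Of the 16 cortical glutamatergic genes 8 had one, with a median fold of 4.11, led by Neurod1 (6.50). That share was near the 45.9% of all genes, and 1 of the 16 was left at the stricter q. A peak is not a measure of expression, and the share of each cell type in the tissue was not tested.

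**Figure D2:**
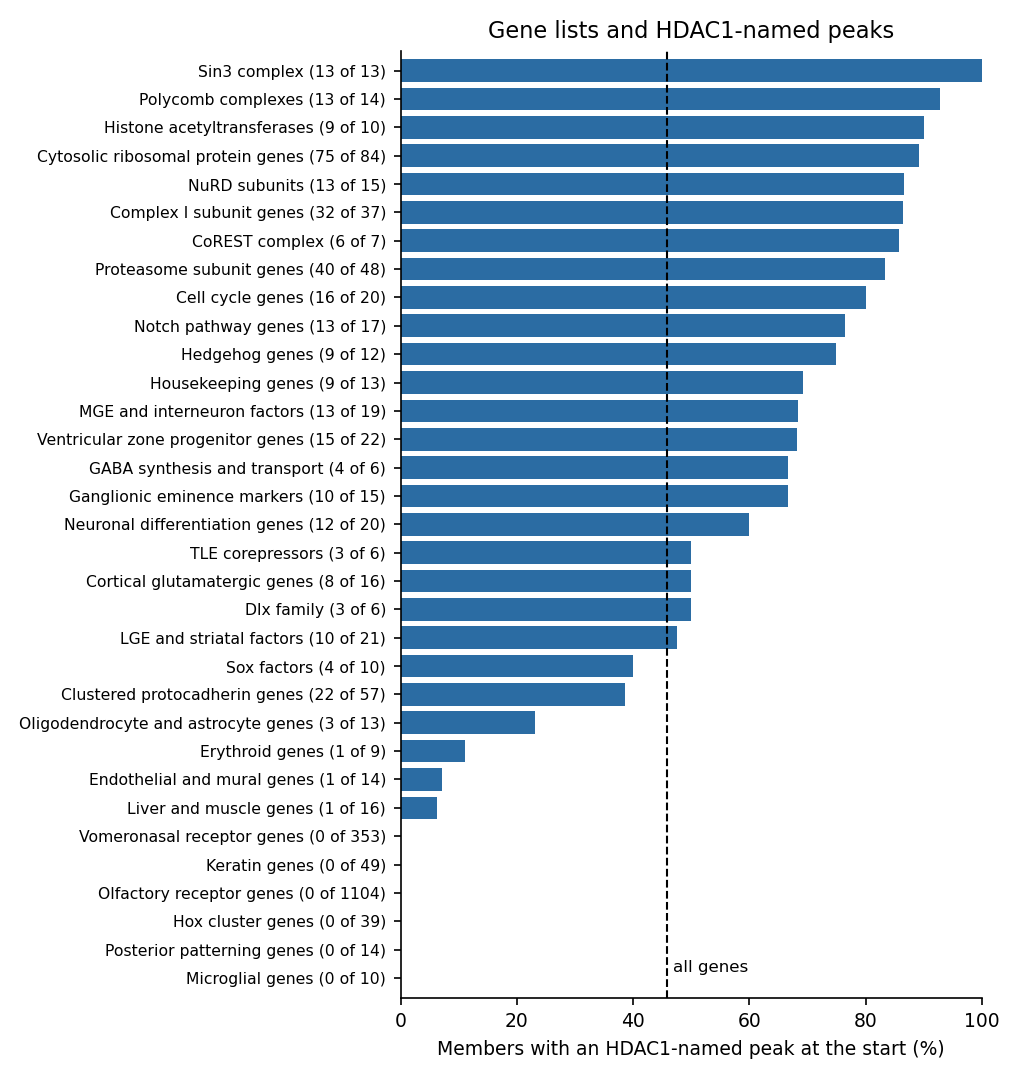
Percentage of the members of each gene list with an HDAC1-named peak at the start (bars, counts beside the names) and the 45.9% over all genes (dashed line). Chromatin regulator, ribosomal protein, complex I, proteasome and cell cycle genes sit far above the line, and Hox, sensory receptor, keratin and microglial genes at 0.

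The promoters with peaks were rich in CpG. Of 20393 RefSeq promoter windows of 300 bases, 8335 (40.9%) were overlapped by an HDAC1-named peak. The share of promoters with a peak was 1.31% (1.0 to 1.70) at a CpG ratio under 0.2, 6.30% from 0.2, 33.1% from 0.4, 62.0% from 0.6, 77.0% from 0.8 and 80.7% (78.8 to 82.5) from 1. The median ratio was 0.826 in promoters with an HDAC1-named peak, 0.698 in those with a peak of another list only and 0.228 in those with no peak of any list. The motifs searched, on both strands, were the GC box GGGCGG (in 47.7% of all promoter windows), CCAAT (38.4%), an ETS site CCGGAAG (11.9%), an NRF1-type element TGCGCA (9.92%), the cyclic AMP response element TGACGTCA (2.31%), a YY1 site AAGATGGC (3.10%), the TATA box TATAAA (12.4%), a homeodomain site TAATTA (4.45%), an E-box CAGCTG (15.8%), the octamer ATGCAAAT (1.62%), an AP-1 site TGACTCA (4.74%) and a SOX site ACAAAG (16.7%). None of the 12 contains another. A match is a run of letters and not a measured binding site.

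The GC box was in 70.9% of promoters with an HDAC1-named peak and 70.4% of those with a peak of another list only. The ETS motif was in 22.2% of promoters with an HDAC1-named peak, 6.87% of those with another list only and 4.26% of those with no peak, and in 28.7% of the 842 promoters of highest fold. The promoters of the other lists, many of which also have an HDAC1-named peak, held the same motifs. ETS motifs were in 20.3% of those with an HDAC2-named peak, 17.1% with RBBP4, 15.0% with MBD3, 14.6% with a CHD4-named peak and 14.4% with RBBP7. YY1 motifs were in 5.39% with an HDAC1-named peak, 4.72% with an HDAC2-named and 4.61% with a CHD4-named peak. Among CpG-rich promoters alone, at a CpG ratio of at least 0.6, ETS motifs were in 23.6% of 7173 promoters with an HDAC1-named peak, 7.68% of 1745 with another list only and 14.6% of 1115 with none. YY1 motifs were in 5.79%, 2.41% and 3.68% of the same 3 sets, NRF1-type elements in 18.1%, 11.8% and 15.5%, and GC boxes in 74.5%, 80.9% and 63.6%. Of the 2433 promoters with an ETS motif, 76.0% (74.3 to 77.7) had an HDAC1-named peak, and of the 633 with a YY1 motif 70.9% (67.3 to 74.3). Of the 2530 promoters with a TATA box 17.6% (16.2 to 19.1) had one, and of the 908 with a homeodomain motif also 17.6% (15.3 to 20.2). Of these, 1805 with a TATA box and 629 with a homeodomain motif had a CpG ratio under 0.6 and no peak of any list. At a ratio of at least 0.6, TATA boxes were in 4.84%, 5.67% and 9.78% of the same 3 sets as above. Homeodomain motifs were in 1.58%, 2.29% and 4.48%. In the promoters printed above, Psme3 holds an ETS motif and an NRF1-type element and Mcm5 a YY1 motif, read on the opposite strand.

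**Figure D3:**
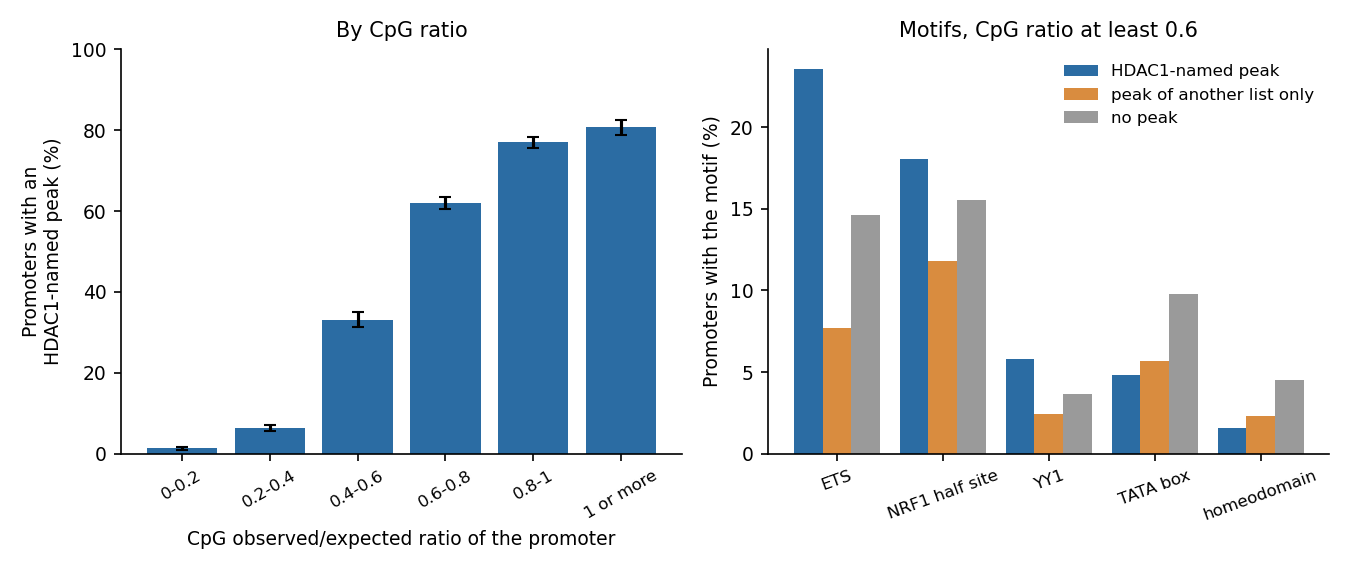
Left, percentage of RefSeq promoter windows with an HDAC1-named peak by the CpG observed over expected ratio, with Wilson 95% intervals, which rises from 1.31% to 80.7%. Right, percentage of promoters of CpG ratio at least 0.6 that hold each motif, for promoters with an HDAC1-named peak, with a peak of another list only and with no peak. ETS and YY1 motifs are most frequent in the first set.

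The HDAC1-named peaks were the widest of the series. Of the list, 27.5% were at least 1 kb wide, against 3.77% to 16.0% in the other lists, and 596 were at least 2500 bp, against 386 of the longer RBBP4 list and 3 to 23 in the others. The 596 made up 14.0% of the 15.8 Mb that the list covers. Most of the 10 widest peaks had the summit away from a gene start. The widest included 28333 bp at Mir9-2, 13038 bp at Bahcc1, 12329 bp within Skida1, 12204 bp within Mn1, 11800 bp at Mir9-3, peaks of 11622 and 9361 bp at Meis2, a homeodomain factor gene of the striatal lineage, 10578 bp at the cell cycle inhibitor gene Cdkn1b and 9481 bp within the histone methyltransferase gene Setd1b. Of the 80 peaks of at least 5 kb, 20% had the summit at a start. Every other list overlapped them more often than it overlapped all HDAC1-named peaks. The shares were 96.3% against 46.2% for the HDAC2-named list, 96.3% against 75.4% for RBBP4 and 83.8% against 41.5% for MBD3. For RBBP7 they were 72.5% against 26.7%, and for the CHD4-named list 37.5% against 18.9%. A wider peak has more room for an overlap of 1 bp, and this was not adjusted for.

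**Figure D4:**
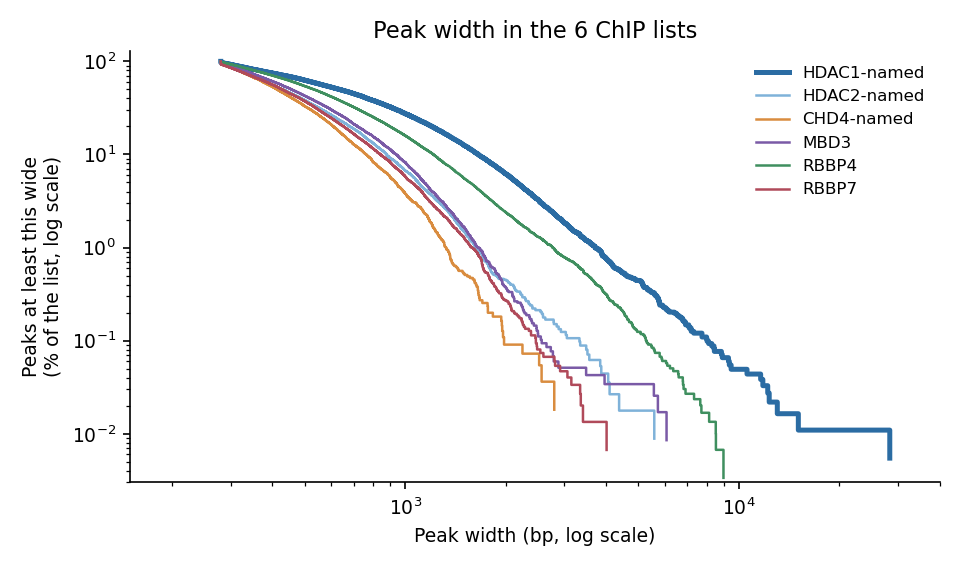
Percentage of peaks at least as wide as the value on the x axis, for the 6 ChIP lists (both axes logarithmic). The HDAC1-named line lies above the others beyond about 1 kb, and RBBP4 comes next.

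Neighbouring peaks formed chains. Peaks were joined where the gap was at most 5 kb, a rule chosen after the data were seen. Of 13164 chains, 9538 were single peaks and 113 held at least 5. The longest by count held 16 peaks over 24.8 kb at Dlx5 and Dlx6, 14 over 40.5 kb at Skida1, and 13 each at Pax6, the eye and forebrain factor gene, over 17.2 kb and beside the nuclear receptor gene Nr2f1 over 21.2 kb. Further chains held 12 peaks at Nr2f2, 12 between Polg and Rhcg, 11 at the POU factor gene Pou3f3, 10 at Sox2, 10 at Nkx2-1, the MGE factor gene, and 10 over 14.6 kb whose nearest gene was Cypt12. The highest fold within these chains ran from 5.15 beside Nr2f1 to 15.9 at Pou3f3. Within single genes and 1 kb around them, the most peaks were counted in Gse1 (24), Auts2 (23), Nfia (23), Ptprn2 (21), Zbtb20 (16), Pbx3 and Npas3 (15 each), and Epha3, Zeb2 and Zfp536 (14 each). These genes are 134 to 1106 kb long, and Zbtb20 and Pbx3 had no peak at the start.

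At the authors' thresholds and list lengths, the overlap with RBBP4 was the highest. An overlap of at least 1 bp was found with RBBP4 for 75.4% of HDAC1-named peaks (45.2% of RBBP4), with the HDAC2-named list for 46.2% (85.1% of that list), with MBD3 for 41.5% (65.2% of MBD3), with RBBP7 for 26.7% (33.1%) and with the CHD4-named list for 18.9% (63.3%). The shares depend on the length of each list, 29762 peaks in RBBP4 and 5517 in the CHD4-named list. With the 5517 peaks of highest −log10 q of each list, the HDAC2-named list had 48.6%, MBD3 31.0% and RBBP4 30.1%, and at a −log10 q of 10 or more RBBP4 had 62.7%, MBD3 29.5% and the HDAC2-named list 21.3%. Overlap with the HDAC2-named list rose most with the fold of the HDAC1-named peaks. Its share was 25.3% in the lowest of the 4 bins by fold and 73.7% in the highest. RBBP4 had 69.5% and 79.8%, MBD3 35.4% and 45.1%, RBBP7 24.6% and 27.1%, and the CHD4-named list 15.3% and 20.6%. Median width rose from 381 to 1215 bp between the same bins. By width, HDAC2-named overlap was 24.2% under 500 bp and 71.3% from 1000 to 2500 bp. Strength and width were not separated. Over the peaks shared with the HDAC2-named list, the fold values of both lists had a Spearman rho of 0.31, and no other list had a rho outside -0.07 to 0.08, over peaks that are not independent. The HDAC2-named list shares its prefix with this list. The samples that hold the 2 lists are paired with different inputs, but their titles conflict with the list names. Whether the 2 lists rest on the same input therefore cannot be told.

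Overlap by position depended on which list was counted. At starts 49.8% of HDAC1-named peaks overlapped the HDAC2-named list and away from starts 41.0%. For RBBP7 the values were 17.9% and 39.5%, for the CHD4-named list 14.3% and 25.6%, for MBD3 38.4% and 45.9% and for RBBP4 75.3% and 75.5%. Counted over the peaks of each other list, overlap with an HDAC1-named peak was always higher at starts than away. It was 74.2% and 23.8% for RBBP7, 74.2% and 56.2% for the CHD4-named list and 79.7% and 53.0% for MBD3. For RBBP4 it was 73.6% and 29.0%, and for the HDAC2-named list 90.9% and 76.7%. Of the 1175 HDAC1-named peaks over 100 kb from a gene, 59.6% overlapped RBBP7 and 21.2% all 5 other lists, against 8.0% (1462) of the whole list. Median fold was 5.04 in peaks of no other list and 6.69 in peaks with all 5, with 5.40, 5.81, 5.85 and 6.07 for 1 to 4 other lists. The share at starts was 57.1% with none and 37.1% with all 5, and highest, 66.6%, with 1.

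**Figure D5:**
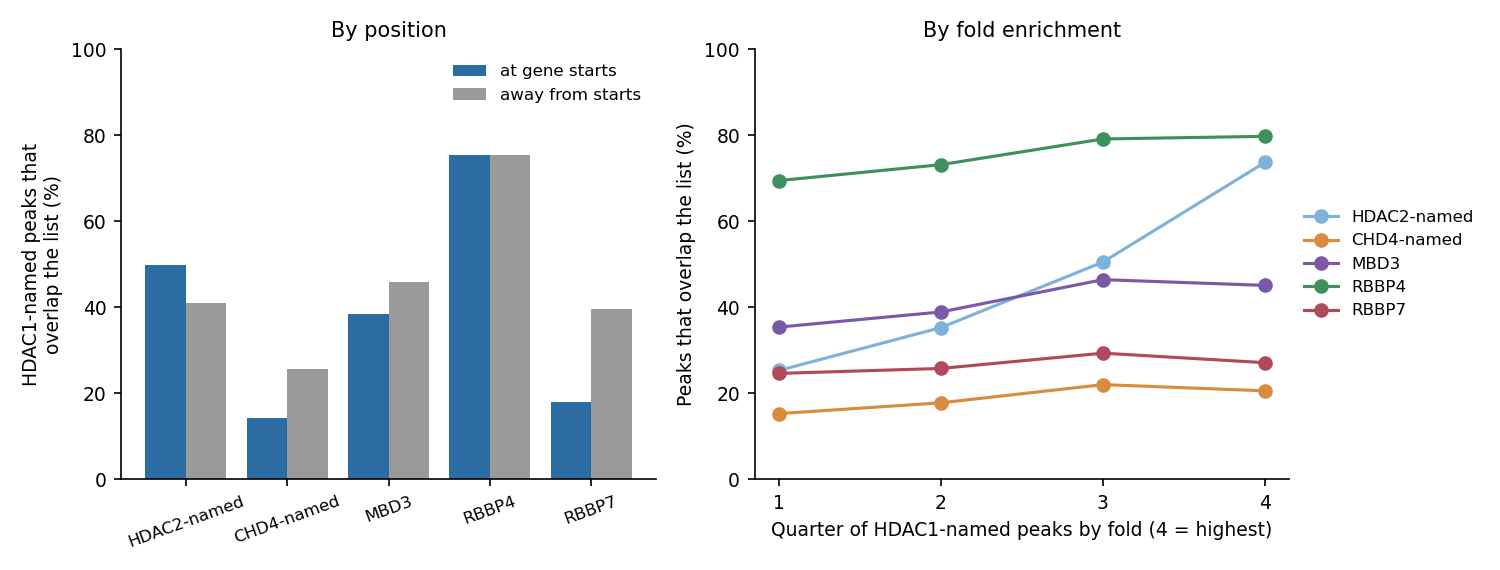
Left, percentage of HDAC1-named peaks that overlap each other list, at gene starts and away from them. Right, the same by fold of the HDAC1-named peaks, in 4 equal bins from lowest (1) to highest (4). RBBP7 overlap is 17.9% at starts and 39.5% away, and HDAC2-named overlap climbs to 73.7% in the highest bin.

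Peaks found in no other list numbered 3406 (18.6%), with a median fold of 5.04 and a median width of 463 bp. Of the 10 strongest of them, 9 lay at gene starts. They included the shared starts of Fam161b and the coenzyme Q gene Coq6 (17.5) and of the tyrosyl-tRNA synthetase gene Yars and S100pbp (16.7), the RNA acetyltransferase gene Nat10 (15.8), the condensin gene Ncapd2 facing Mrpl51 (15.5), the replication clamp gene Pcna (14.9) and Sumo2 (14.3). The exception was a peak of 507 bp and fold 15.8, at chr1:7397465-7397971 and 224156 bp from Pcmtd1. Of the 10 strongest peaks over 100 kb from a gene, 6 overlapped all 5 other lists. Their nearest genes were Zfp608 (fold 16.0, 434772 bp), Sox1 (13.6), Fam110b (13.2), the corepressor genes Tle1 (12.8) and Tle4 (12.4), and Mn1 (11.8).

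The accessibility lists give the regions whose openness the authors called different between KO and WT embryos. At the targeted locus, from Dlx1 through Dlx2 (chr2:71528113-71546754), 7 HDAC1-named peaks of folds 3.46 to 14.5 were found in the ChIP tissue, and 5 WT-higher regions in each fraction lay there. Of the 727 regions more open in KO FTneg cells, 285 (39.2%, 35.7 to 42.8) overlapped an HDAC1-named peak, 275 of them away from gene starts. The 292 peaks concerned were of ordinary strength (median fold 5.42, against 5.64 in the whole list). Of the regions themselves 701 lay away from starts, so these peaks are nearly all distal. Of them 34.2% overlapped all 5 other lists, against 12.3% of all HDAC1-named peaks away from starts. The other lists overlapped the same 727 regions in 66.0% of cases for RBBP4, 43.3% for RBBP7, 36.2% for MBD3, 25.9% for the CHD4-named and 22.4% for the HDAC2-named list, so RBBP4 and RBBP7 covered more of them than the HDAC1-named list. The regions at the strongest peaks lay within Cacng4 (31.4), 77131 bp from Ifngr1 (23.6), 162328 bp from Fam110b (13.2), within Hat1 (12.9, at 2 regions) and near Sox21, a progenitor factor gene (12.2, at 2 regions).

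Of the 53 regions more open in WT FTneg cells 18 (34.0%, 22.7 to 47.4) overlapped an HDAC1-named peak, and of the 48 outside the targeted locus 13 (27.1%, 16.6 to 41.0). In FTpos cells the WT-higher regions overlapped a peak in 24 of 33 cases (72.7%, 55.8 to 84.9), and in 19 of 28 outside the locus (67.9%, 49.3 to 82.1). RBBP4 overlapped 87.9% of these 33 regions, MBD3 63.6%, the HDAC2-named list 54.5%, the CHD4-named list 45.5% and RBBP7 27.3%. None of the 12 KO-higher FTpos regions overlapped an HDAC1-named peak (0%, 0 to 24.2). RBBP4, RBBP7 and the HDAC2-named list each overlapped 1 of them, and MBD3 and the CHD4-named list 0. The ChIP embryos were a day older than those of the accessibility lists, and their tissue was not split into these fractions.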

How the data were processed

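The data were 6 ChIP-seq peak lists, 1 library each, and 4 lists of accessibility regions. Per the submitters' processing notes, the authors' tools included MACS2 2.2.7.1, Genrich, BWA, deepTools and SAMtools 1.10, with the build mm10. Settings are not given in the sources used here. The deposited ChIP lists give each peak's fold enrichment at the summit as a ratio, and the −log10 p and −log10 q of the authors' peak caller. Their names state that blacklisted regions were removed. In the deposited accessibility lists the authors' score is the area of a region, at least 500, with a −log10 p at its summit, and the embryos of a genotype were combined. No read counts come with the lists, so depth is unknown.

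Overlap was at least 1 bp. Gene starts came from RefSeq (GRCm38.p6) on chromosomes 1 to 19 and X, with a promoter entry for 16783 of 20953 genes. Promoter windows ran from 250 bases before to 50 after a start. The peaks named are the 20 of highest fold, the 10 widest, the 10 strongest over 100 kb from a gene and the 10 strongest in no other list. For the 33 gene lists, up to 4 members of highest fold and, in short lists, members without a start peak are named. The accessibility regions named are those at the peaks of highest fold, chosen after their values were seen. Members and lists were chosen with earlier results of these data known. The motifs, promoters printed, chains, divergent starts and CpG bins were chosen after the data were seen. Wilson 95% intervals cover counting error only. Each list is 1 library, so no test was made. Alternatives were other windows, overlap rules and thresholds. Python 3.11.15, pandas 2.3.3, NumPy 2.4.6, SciPy 1.17.1 and matplotlib 3.10.9 were used, and the overlap and interval functions were tested on simulated data. Columns of per-sample values left unused numbered 0.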

Additional observations from a re-analysis of the deposited data

How the results depend on the processing

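The share of HDAC1-named peaks at starts, 59.2% within 1 kb, was 47.3% within 500 bp, 71.6% within 5 kb, 63.4% for any overlap of the peak, 70.9% for peaks with −log10 q of 10 or more, and 63.5% with all annotated genes. With settings added after seeing the data, it was 52.4% with either end of every gene in place of the start and 49.5% with known starts only. The share of genes with a start peak, 45.9%, was 39.8% within 500 bp, 50.4% within 5 kb, 37.1% at the stricter q, 47.6% for any overlap, 42.9% with either end and 46.9% with known starts only. Overlap with the HDAC2-named list (46.2%) was 21.2% where each peak had to share at least 50% of its length, 33.4% for summits within 250 bp, 21.3% at the stricter q in every list and 48.6% with the 5517 peaks of highest −log10 q of each list. Under the same 4 settings in that order, the CHD4-named overlap was 8.24%, 12.1%, 6.43% and 20.5%, MBD3 20.2%, 27.7%, 29.5% and 31.0%, RBBP4 35.7%, 47.8%, 62.7% and 30.1%, and RBBP7 11.5%, 18.4%, 12.52% and 11.4%. Peaks in no other list were 49.6%, 34.6%, 31.4% and 36.5%. RBBP4 thus had the highest overlap in 3 of these 4 settings, and the HDAC2-named list at equal lengths. KO-higher FTneg regions with a peak (39.2%) were 44.7% at an area of at least 1000, 33.6% with the summit inside the region and 23.4% at the stricter q. WT-higher FTneg regions reached 90% (9 of 10) and WT-higher FTpos regions 87.5% at that area, with 5 regions of each at the targeted Dlx1/Dlx2 locus and, in a setting added after seeing the data, 80% (4 of 5) and 66.7% (2 of 3) outside it. The WT-higher FTpos share was 54.5% with the summit inside. At the stricter q, median fold was 7.19 at starts and 6.59 away, and median width 937 and 811 bp. With the 5 kb window 4 of the 33 gene lists gained over 1.5 times the members, and at the stricter q the count was lower by over 1.5 times for the Dlx (1), ganglionic eminence (5), ventricular zone (9), GABA (2), glutamatergic (1) and endothelial (0) lists. The causes were not tested.

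No paired analysis was possible because each list is 1 library. Each list has no replicate, so the spread between libraries and any error of a single antibody or input are not measured. Fold values of different lists come from separate peak calls and are not on a common scale. The names and titles of 3 lists conflict, so no protein is assigned to them here.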
